A study of Homo sapiens with 4 samples.

Results

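Heat shock chaperones were followed in 2 human bladder cancer cell lines, T24T and EJ, by RNA sequencing. The group comprised 10 of the 56303 genes in the count table, matched by symbol: the inducible HSP70 genes HSPA1A and HSPA1B and the co-chaperone gene BAG3, the cytosolic genes DNAJB1, HSPH1, HSPA8 and HSP90AA1, the small heat shock protein gene HSPB1, and the mitochondrial genes HSPD1 and HSPE1. All 10 were found and all 10 passed the filter on low counts. T24T and EJ each gave 2 libraries, 1 after transfection of hsa_circ_0008399, a circular RNA (called circ), and 1 after transfection of its control vector (called vector), so each of the 4 groups was 1 library. A circular RNA is a closed loop of exon sequence without free ends, and the series was made to look for genes downstream of this loop. The labels give neither the dose nor the time after transfection. T24T is a variant of the line T24, and EJ has been traced by DNA typing to T24, so the lines are related and do not stand for separate tumours. In the hg38 coordinates of the count table HSPA1A lies at chr6:31815464-31817946, HSPA1B at chr6:31827735-31830255, BAG3 at chr10:119651370-119677819, HSPB1 at chr7:76302544-76304295, HSPD1 at chr2:197486581-197516737 and HSPE1 at chr2:197499994-197503457.

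Cells meet unfolded protein with chaperones that act in a cycle. HSP70 holds exposed stretches of a chain, J-domain proteins such as DNAJB1 deliver clients and start ATP hydrolysis, and exchange factors such as BAG3 and HSPH1 let the client go, after which HSP90 matures many kinases and receptors. Heat, proteotoxic drugs and other stress free the transcription factor HSF1, which binds heat shock elements, runs of inverted GAA repeats, in the promoters of the inducible genes. In the mitochondrial matrix the HSPD1 (HSP60) barrel and its HSPE1 (HSP10) lid fold imported proteins, and HSPB1 (HSP27) holds unfolding proteins without ATP. Many tumour cells carry high levels of HSP70 and HSP90.

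The promoters of single-start members on both sides of the contrast, and of constitutive HSPA8, are shown because the genes below moved in opposite directions. Each is the 250 bases before the start that RefSeq annotates (GRCh38.p14), 5′ to 3′ on the gene's strand. Capitals mark heat shock element units, searched as GAANNTTC and TTCNNGAA, which each read the same on both strands and may overlap, and CCAAT boxes, searched as CCAAT and, for the other strand, ATTGG.
HSPA1A, chr6:31815293-31815542, plus strand: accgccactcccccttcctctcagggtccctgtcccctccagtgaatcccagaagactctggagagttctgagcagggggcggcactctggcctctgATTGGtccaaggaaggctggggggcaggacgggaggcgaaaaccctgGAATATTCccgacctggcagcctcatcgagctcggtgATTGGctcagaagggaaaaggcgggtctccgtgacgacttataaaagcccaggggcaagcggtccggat
HSPA1B, chr6:31827488-31827737, plus strand: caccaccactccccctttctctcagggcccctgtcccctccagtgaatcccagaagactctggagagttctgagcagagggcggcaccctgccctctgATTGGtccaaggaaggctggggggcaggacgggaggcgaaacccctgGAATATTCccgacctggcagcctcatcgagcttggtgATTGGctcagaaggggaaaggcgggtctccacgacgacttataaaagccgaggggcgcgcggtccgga
BAG3, chr10:119651130-119651379, plus strand: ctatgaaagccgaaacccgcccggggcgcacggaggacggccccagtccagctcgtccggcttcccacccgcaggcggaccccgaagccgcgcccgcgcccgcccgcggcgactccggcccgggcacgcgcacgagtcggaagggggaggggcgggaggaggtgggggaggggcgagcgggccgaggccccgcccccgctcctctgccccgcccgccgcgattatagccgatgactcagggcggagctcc
HSPA8, chr11:123062137-123062386, minus strand: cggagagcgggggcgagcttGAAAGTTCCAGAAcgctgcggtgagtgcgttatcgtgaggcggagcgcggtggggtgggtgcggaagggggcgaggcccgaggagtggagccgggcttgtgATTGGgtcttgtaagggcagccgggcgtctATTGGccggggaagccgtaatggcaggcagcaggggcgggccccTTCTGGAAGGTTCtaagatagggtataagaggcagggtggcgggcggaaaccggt
HSPB1, chr7:76302423-76302672, plus strand: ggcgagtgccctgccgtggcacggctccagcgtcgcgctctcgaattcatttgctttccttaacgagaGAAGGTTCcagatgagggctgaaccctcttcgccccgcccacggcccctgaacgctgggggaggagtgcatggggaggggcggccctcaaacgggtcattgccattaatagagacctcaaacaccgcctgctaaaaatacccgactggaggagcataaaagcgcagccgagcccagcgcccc
HSPE1, chr2:197500129-197500378, plus strand: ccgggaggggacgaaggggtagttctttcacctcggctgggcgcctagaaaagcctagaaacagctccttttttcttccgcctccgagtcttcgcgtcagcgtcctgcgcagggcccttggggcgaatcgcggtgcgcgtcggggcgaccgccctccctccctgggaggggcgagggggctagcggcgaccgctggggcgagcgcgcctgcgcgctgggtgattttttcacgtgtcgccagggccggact
The starts of HSPA1A and HSPA1B lie 12195 bases apart on chromosome 6. The windows of these genes had 235 identical aligned bases, 14 mismatches and 2 gap bases. In HSPA1A a unit began 106 bases before the start, between CCAAT boxes at 153 and 69 bases, and in HSPA1B the same 3 matches lay at 105, 152 and 68 bases. HSPA8 held 4 units and 2 CCAAT boxes, and HSPB1 held 1 unit at 182 bases. The windows of BAG3, HSPE1 and HSPH1 held neither motif. HSPD1 and HSPE1 are divergent neighbours whose nearer starts are 104 bases apart. No match was found before that HSPD1 start, and 3 overlapping units were found before its other start. That other start is 538 bases from the HSPE1 start. The 3 units lie between these starts, outside the 250 bases searched for HSPE1. Of the 3 DNAJB1 starts 1 had units, 2 of them, and of the 2 HSP90AA1 starts 1 had 3 units. Among all 35116 promoter windows in the RefSeq table, 11.6% held a unit, 1.32% held at least 2, 0.145% held at least 3, and 32.0% held a CCAAT box. A match describes letters only. Heat shock element units were found on both sides of the contrast. CCAAT boxes were found in none of the windows of HSPB1, HSPD1 and HSPE1, nor in those of BAG3 and HSPH1.

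**Figure D1:**
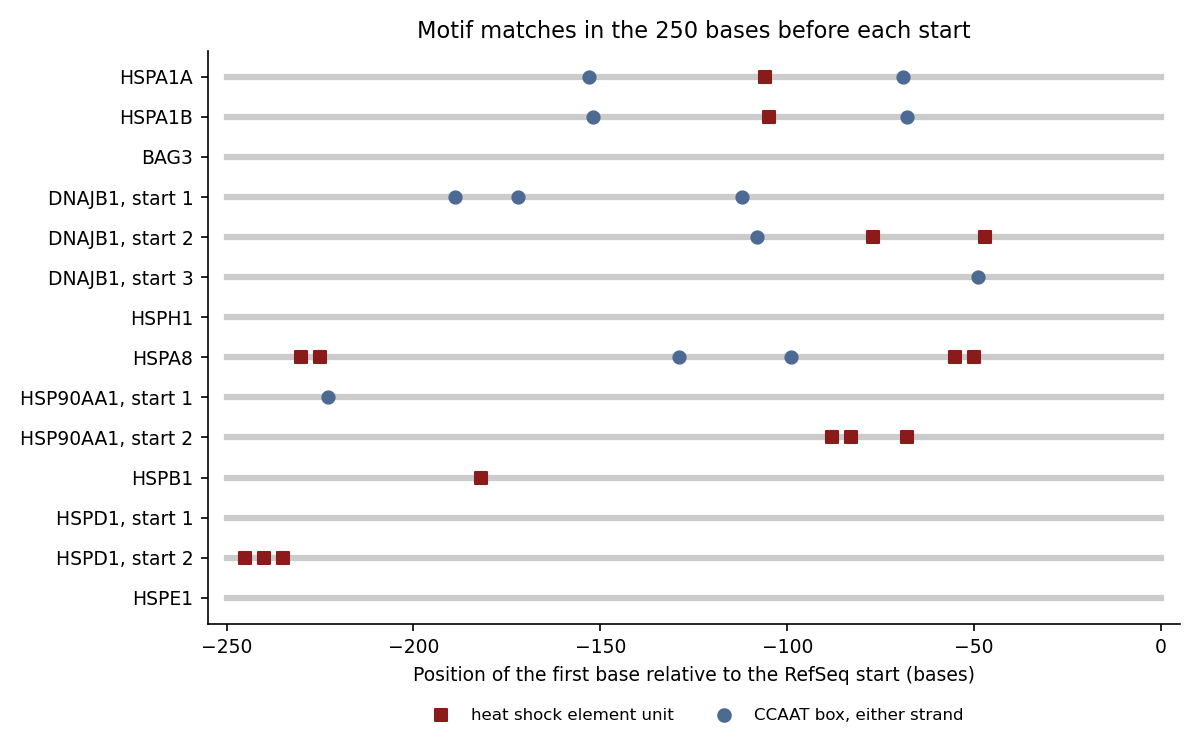
Matches in the 250 bases before each RefSeq start of the 10 genes (x axis, position of the first base relative to the start; 1 row per start). Squares are heat shock element units and circles CCAAT boxes; HSPA8 has 4 units, HSPA1A and HSPA1B have 1 each, and BAG3, HSPH1 and HSPE1 have no match.

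Total counts ranged from 14703455 to 18057768 per library. The share of counts from mitochondrially encoded genes was lower in circ, at 3.08% in T24T circ and 4.01% in EJ circ, against 5.05% in T24T vector and 5.40% in EJ vector. Apart from a refit without these genes, its part in the results below was not tested. Epithelial keratins were present, with KRT7 at 88.3 to 142 RPKM (reads per kilobase of exon, scaled to total counts) and KRT18 at 92.5 to 188 RPKM, while KRT19 had 3 to 4 counts a library and EPCAM had 111 and 117 in T24T circ and vector and 4 and 7 in EJ circ and vector. Of the urothelial markers KRT5 and UPK3A were at 0 counts in all 4 libraries, GATA3 had at most 1, and UPK2 (23 to 48 counts), UPK1A (7 to 25), FOXA1 (26 to 70) and PPARG (11 to 44) were low but present. Of 15 epithelial or urothelial markers 8 could be tested and 1, KRT7, rose. Of 6 leukocyte markers 3 were at 0, PTPRC and CD3E among them, and the summed counts, 1112 in T24T circ, 954 in T24T vector, 219 in EJ circ and 164 in EJ vector, were nearly all CD68. Endothelial markers summed to 15, 8, 2 and 8 counts in the same order, and HBA1 and HBB were at 0. In bulk RNA a change in the number of cells that express a gene and a change in RNA per cell cannot be told apart.

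With the circular RNA, HSPA1A, HSPA1B and BAG3 were higher in both lines, and HSPD1, HSPE1 and HSPB1 were lower in both. HSPA1A and HSPA1B reached close to 3-fold in T24T, BAG3 1.41-fold in T24T and 1.57-fold in EJ, and HSPD1, HSPE1 and HSPB1 stood between 0.785 and 0.880 of vector. In all, 7 of the 10 members were higher in both lines, as were 33.4% of all tested genes, and 3 of 10 were lower in both, a share near the 32.3% of all tested genes. HSPA1A and HSPA1B were 1.5-fold or more higher in both lines, as were 2.51% of tested genes. The 2 genes are near copies, as described below, so in all these counts they are not independent members. That fold was passed by 2 members in T24T (7.76% of tested genes) and by 3 in EJ (7.24%), BAG3 being the third. The test was edgeR's quasi-likelihood fit over all 17689 tested genes with cell line as a term and Benjamini-Hochberg adjustment at 0.05, in which 4 members rose (HSPA1A, HSPA1B, BAG3 and DNAJB1), 2 fell (HSPD1 and HSPB1) and 4 did not pass. Over all tested genes 7.13% rose and 5.56% fell. Libraries of the 2 lines are the only replicates, and 1 residual degree of freedom remains, so each standard error rests mostly on spread pooled over genes. DESeq2, which called 1.89% of all genes, called BAG3 alone among the members (adjusted p = 0.0220), and edgeR without the cell line term called none of them and none of the 17689 genes, with 397 at an unadjusted p under 0.05.

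HSPA1A and HSPA1B, which encode the stress-inducible cytosolic HSP70, led the group. HSPA1A had 385 CPM (counts scaled by TMM to library size) in T24T circ, against 132 in T24T vector, and 285 in EJ circ, against 173 in EJ vector. HSPA1B had 523 CPM in T24T circ, against 174 in T24T vector, and 347 in EJ circ, against 219 in EJ vector. For both genes the 2 circ libraries lay above the 2 vector libraries, T24T circ being the highest and T24T vector the lowest. HSPA1A was 2.91-fold higher in T24T (95% exact binomial interval 2.77 to 3.06, which covers counting error only) and 1.65-fold higher in EJ (1.57 to 1.73). HSPA1B was 3.01-fold higher in T24T (2.89 to 3.14) and 1.58-fold higher in EJ (1.52 to 1.65). In the fit over both lines (n = 2 lines) HSPA1A rose by 1.13 ± 0.11 on the log2 scale (SE of the fit, edgeR adjusted p = 2.68e-08) and HSPA1B by 1.13 ± 0.12 (edgeR adjusted p = 6.13e-08). That SE rests mostly on spread pooled over genes. The SD between the 2 line ratios was 0.58 for HSPA1A and 0.66 for HSPA1B. The genes took places 15 and 25 of 17689 by p, and places 236 and 240 by the size of the rise.

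These genes are near copies. Of the distinct 50-base stretches in HSPA1A transcripts of GENCODE release 29, 71.3% also occurred in HSPA1B, and 73.5% of those in HSPA1B occurred in other genes, mostly HSPA1A. How reads that fit both were counted is not given in the sources used here, so each gene's own value is uncertain. The ratio of HSPA1A to HSPA1B counts was 0.736 in T24T circ, 0.762 in T24T vector, 0.821 in EJ circ and 0.790 in EJ vector, a narrow range over the 4 libraries. Summed before the fit, the pair had 15892 counts in T24T circ, against 5081 in T24T vector, and 9467 in EJ circ, against 6283 in EJ vector. The summed row rose by 1.13 ± 0.11 (edgeR adjusted p = 3.12e-08), where the SE again rests mostly on spread pooled over genes. The summed row had a log2 ratio of 1.57 in T24T and 0.69 in EJ (between-line SD 0.62). The difference of 0.88 between the lines could not be tested, because a fit with that term leaves 0 residual degrees of freedom. HSPA1L, the testis-enriched HSP70 gene beside HSPA1A, had 65 counts in T24T circ, against 41 in T24T vector, and 44 in EJ circ, against 29 in EJ vector, and did not pass (log2 fold change 0.64 ± 0.27, edgeR adjusted p = 0.116).

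BAG3 couples HSP70 to small heat shock proteins and to the autophagy of damaged protein, and releases HSP70 clients. It had 61.3 CPM in T24T circ, against 43.3 in T24T vector, and 53.8 in EJ circ, against 34.2 in EJ vector. Both circ libraries lay above both vector libraries. BAG3 was 1.41-fold higher in T24T (1.28 to 1.56) and 1.57-fold higher in EJ (1.41 to 1.76), counting intervals that overlap, and rose by 0.57 ± 0.10 (edgeR adjusted p = 8.64e-05). No 50-base stretch of its transcripts occurred in another gene. Per unit of length, the HSP70 pair stood at 16.3 times BAG3 in T24T circ, against 7.74 times in T24T vector, and at 12.9 times in EJ circ, against 12.6 times in EJ vector. In EJ the HSP70 pair kept its ratio to BAG3, and in T24T it did not.

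Of the other cytosolic chaperones, DNAJB1 alone passed. DNAJB1 had 152 CPM in T24T circ, against 108 in T24T vector, and 129 in EJ circ, against 123 in EJ vector. The groups did not overlap, but in EJ the fold of 1.05 had a counting interval of 0.989 to 1.12, while in T24T it was 1.40 (1.32 to 1.49). Its rise of 0.28 ± 0.09 (edgeR adjusted p = 0.0364) therefore rests on T24T, whose log2 ratio was 0.49, against 0.08 in EJ. DNAJB1 shares 228 exonic bases with TECR on the opposite strand, and the sources do not say whether strand was used in counting. TECR, an enzyme gene of fatty acid elongation, was lower in circ, with 939 counts in T24T circ, against 1129 in T24T vector, and 861 in EJ circ, against 1103 in EJ vector.

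HSPH1, an HSP110 exchange factor, had 106 CPM in T24T circ, against 91.3 in T24T vector, and 94.6 in EJ circ, against 80.5 in EJ vector. Its 2 circ libraries lay above its 2 vector libraries, but the log2 fold change of 0.22 ± 0.08 did not pass (edgeR adjusted p = 0.0825). HSP90AA1, the inducible form of cytosolic HSP90, had 3522 CPM in T24T circ, against 3199.99 in T24T vector, and 3979.7 in EJ circ, against 3496 in EJ vector. The circ libraries lay above the vector libraries, T24T circ only just above EJ vector, and the log2 fold change of 0.16 ± 0.07 did not pass (edgeR adjusted p = 0.158). HSPA8, the constitutive HSP70, had 1150.4 CPM in T24T circ, against 1091 in T24T vector, and 1269.97 in EJ circ, against 1184 in EJ vector. The HSPA8 groups overlapped, with the smallest difference of the 10 members, 0.09 ± 0.08 (edgeR adjusted p = 0.514).

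HSPD1 and HSPE1, the mitochondrial chaperonin and its lid, moved the other way. HSPD1 had 514 CPM in T24T circ, against 654 in T24T vector, and 439.8 in EJ circ, against 499.6 in EJ vector. It was lower in circ within each line, at 0.785 of vector in T24T (0.764 to 0.808) and 0.880 in EJ (0.852 to 0.910), although T24T circ lay above EJ vector. HSPD1 fell by 0.27 ± 0.08 on the log2 scale (edgeR adjusted p = 0.0264). HSPE1 had 243 CPM in T24T circ, against 295 in T24T vector, and 221 in EJ circ, against 253 in EJ vector. Its groups did not overlap, and its log2 fold change of -0.23 ± 0.08 did not pass (edgeR adjusted p = 0.0565). The HSPE1 value passed with RLE scaling (edgeR adjusted p = 0.0363) and in limma-voom (0.0338).

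The ratio of HSPD1 to HSPE1 per unit of length changed little, at 0.983 in T24T circ, against 1.03 in T24T vector, and 0.925 in EJ circ, against 0.921 in EJ vector. Their exons share 281 bases on opposite strands. The read-through gene HSPE1-MOB4 had 96.2% to 97.7% of the HSPE1 count in the 4 libraries. It shares 192 exonic bases with HSPE1, 9.71% of the HSPE1 exons, and reads there could belong to either gene. Why the 2 counts were so close was not tested. Pseudogene copies bore few reads: 15 of HSPD1 summed to 1.68% to 1.80% of its count, and 26 of HSPE1 to 0.540% to 0.995%. The fall of HSPD1 appeared in the libraries with the lower mitochondrially encoded share. With mitochondrially encoded genes removed before scaling, the HSPD1 log2 fold change was -0.28 (edgeR adjusted p = 0.0191). Any other part of that share in the fall was not tested.

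HSPB1, the small heat shock protein HSP27, had 85.9 CPM in T24T circ, against 99.1 in T24T vector, and 74.6 in EJ circ, against 93.5 in EJ vector. The groups did not overlap. HSPB1 stood at 0.867 of vector in T24T (0.808 to 0.930) and 0.798 in EJ (0.738 to 0.863), and fell by 0.26 ± 0.09 (edgeR adjusted p = 0.0374). Over the members, 6 had both circ libraries above both vector libraries in CPM and 2, HSPB1 and HSPE1, had both below, against 15.2% and 13.5% of all tested genes. In RPKM, which is scaled by total count, HSP90AA1 left the first set and HSPD1 joined the second. The plot of CPM by library shows these values.

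**Figure D2:**
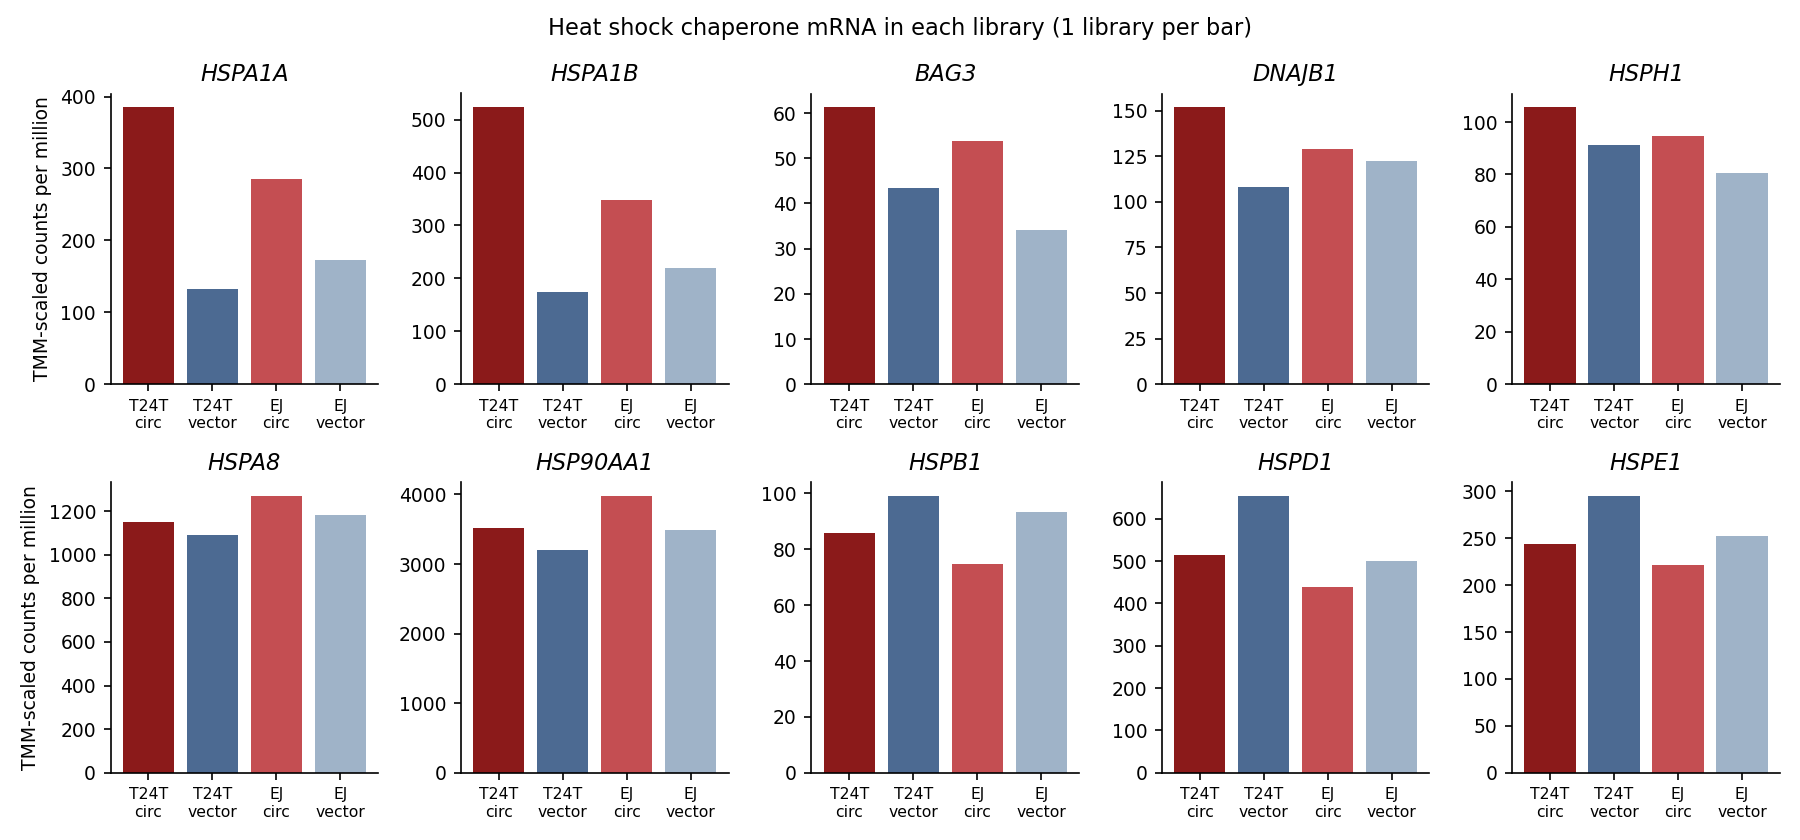
TMM-scaled CPM (y axis, from 0, its own scale per gene) of the 10 genes in T24T circ, T24T vector, EJ circ and EJ vector, 1 library per bar. HSPA1A reaches 385 in T24T circ, against 132 in T24T vector, while HSPD1 is lower in circ within each line.

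**Figure D3:**
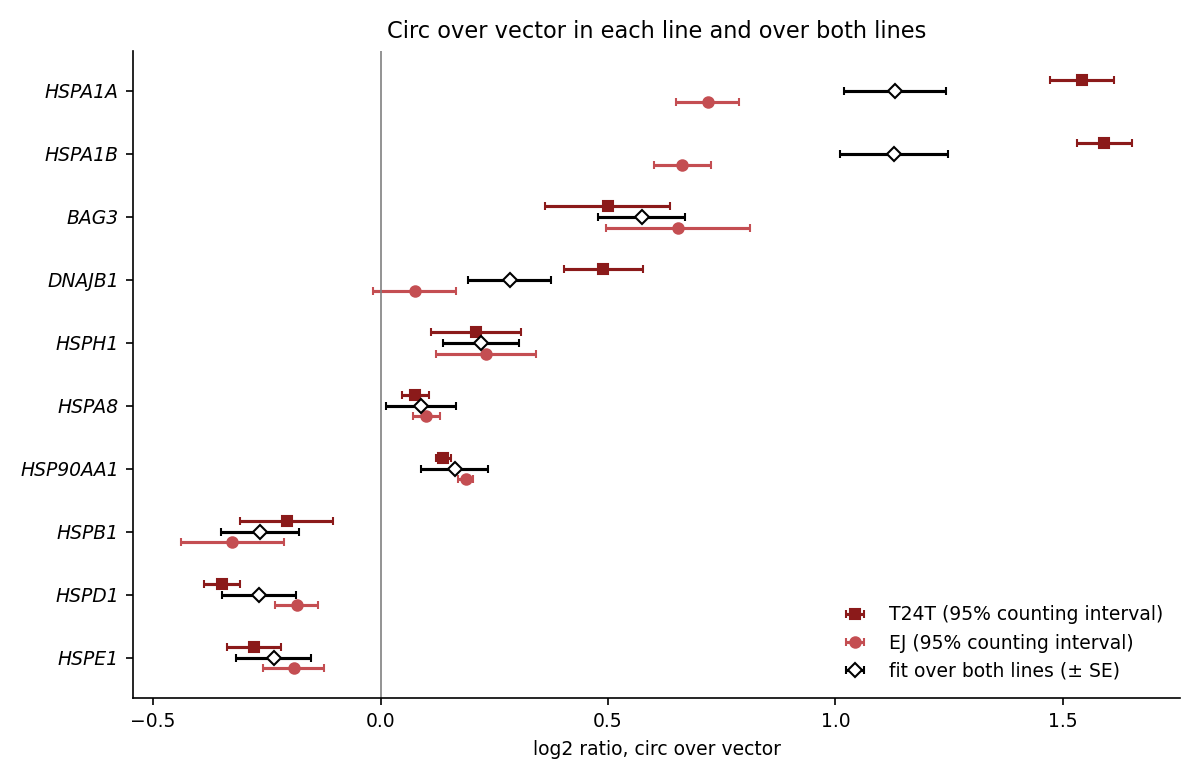
Log2 ratio of circ over vector (x axis) for the 10 genes (rows) in T24T (squares) and EJ (circles), with 95% counting intervals, and the fit over both lines (diamonds, ± SE). The counting intervals of the lines do not overlap for HSPA1A, HSPA1B, DNAJB1, HSPD1 and HSP90AA1. They overlap for the other members, BAG3 among them. HSPB1, HSPD1 and HSPE1 lie below 0 in both lines.

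The inducible genes were set against the mitochondrial and small chaperones as a ratio of summed counts within each library, which no scaling between libraries can change. HSPA1A, HSPA1B and BAG3 together had 16964 counts for 14756 of HSPD1, HSPE1 and HSPB1 in T24T circ, a ratio of 1.15, against 0.333 in T24T vector. In EJ circ 10273 counts stood over 11018, a ratio of 0.932, against 0.504 in EJ vector. The ratio was 3.45-fold higher with circ in T24T (95% exact conditional interval 3.33 to 3.58, counting error only) and 1.85-fold higher in EJ (1.78 to 1.92). HSP70 reads dominate that sum. With BAG3 alone above the line the ratio was 1.76-fold higher in T24T (1.59 to 1.94) and 1.81-fold higher in EJ (1.62 to 2.03). As 1 library stands behind each group, these differences compare libraries and carry no test.

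**Figure D4:**
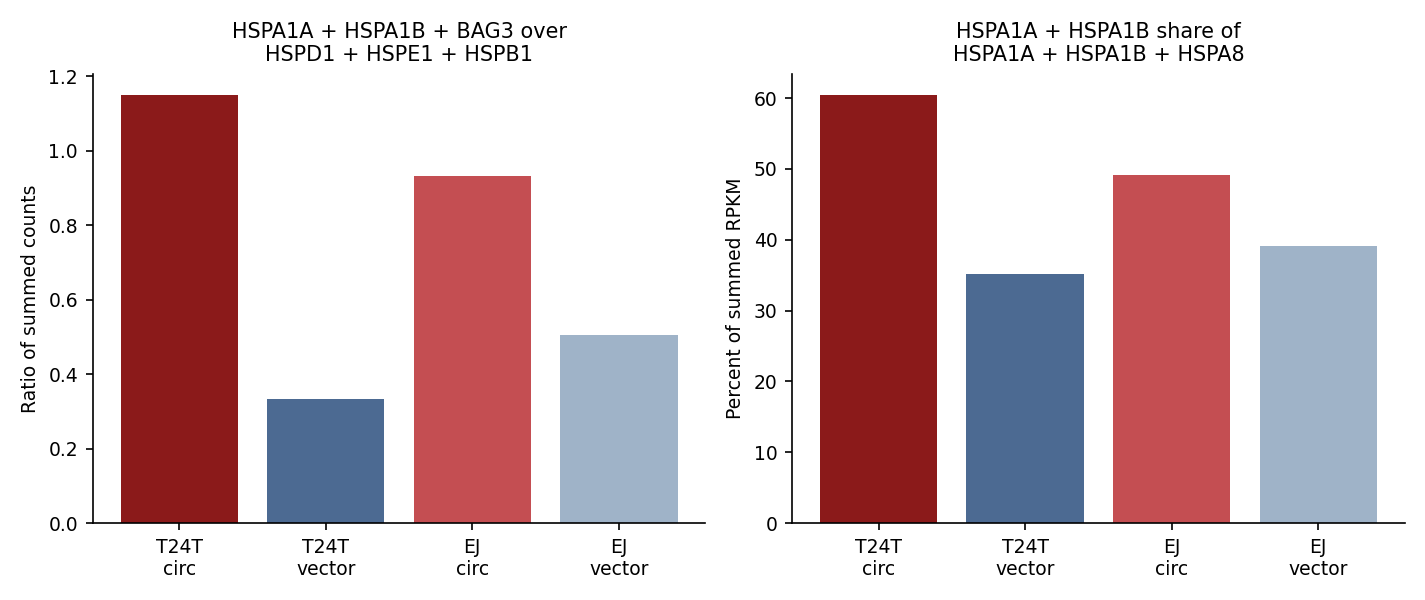
Left, ratio of summed HSPA1A, HSPA1B and BAG3 counts to summed HSPD1, HSPE1 and HSPB1 counts; right, percent of the summed RPKM of HSPA1A, HSPA1B and HSPA8 that comes from HSPA1A and HSPA1B, in each of the 4 libraries. Both circ libraries exceed both vector libraries in either measure, and T24T circ is the highest.

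Levels between genes were compared in RPKM, which divides by each gene's exonic length in the count table. That length was 8390 bases for HSPH1 and 4849 for HSPA8, against 2747 for BAG3, 2521 for HSPA1B and 2483 for HSPA1A. The order and shares below depend on these lengths, and the lengths of the transcripts present were not tested. HSP90AA1 was the highest member in all 4 libraries, at 676 ± 72.2 RPKM (mean ± SD over the 4 libraries), followed by HSPA8 at 242 ± 20.3. The next places changed hands. HSPA1B and then HSPA1A came next after HSPA8 in both circ libraries, at 201 and 150 RPKM in T24T circ and 140 and 117 in EJ circ. In vector HSPD1 and HSPE1 held those places, HSPD1 first in T24T vector (152, against 147 for HSPE1) and HSPE1 first in EJ vector (131, against 121 for HSPD1). HSPB1 (54.0 ± 6.32), DNAJB1 (34.8 ± 4.58), BAG3 (17.5 ± 4.05) and HSPH1 (11.1 ± 1.02) followed. HSPB1 and HSPA1A overlapped in range, as did HSPD1, HSPE1, HSPA1A and HSPA1B, while HSPH1 stayed below BAG3 and BAG3 below DNAJB1 throughout. In counts, without the length, HSPH1 lay above BAG3 in all 4 libraries, with 1848 against 1072 in T24T circ. HSPA1A and HSPA1B together made up 60.4% of the summed RPKM of HSPA1A, HSPA1B and HSPA8 in T24T circ, against 35.2% in T24T vector, and 49.1% in EJ circ, against 39.1% in EJ vector. In counts HSPA8 exceeded the pair even in T24T circ, at 20133 against 15892. The 10 genes took 0.653% of all counts in T24T circ, against 0.580% in T24T vector, and 0.702% in EJ circ, against 0.630% in EJ vector.

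Between the lines, with transfection as the other term, HSPD1 was higher in T24T by 0.31 ± 0.08 (edgeR adjusted p = 0.00262) and BAG3 by 0.26 ± 0.09 (edgeR adjusted p = 0.0271), and no member was lower. Over all tested genes 21.9% were higher and 19.5% lower in T24T. BAG3 had a log2 difference of 0.34 in vector and 0.19 in circ, and HSPD1 one of 0.39 in vector and 0.22 in circ. The HSP70 pair had no single order of the lines. HSPA1A stood at a log2 difference, T24T over EJ, of 0.43 in the circ libraries and -0.39 in the vector libraries, and HSPA1B at 0.59 in circ and -0.34 in vector. DNAJB1 turned in the same way, with 0.23 in circ and -0.18 in vector. Without the transfection term neither passed, and in DESeq2 HSPD1 passed (adjusted p = 0.0486) and BAG3 did not (0.347).

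The wider network was described with 10 lists of 112 genes, of which 102 could be tested. Of these 20 rose and 1 fell, with a median log2 fold change of 0.11, while over all tested genes 7.13% rose and 5.56% fell, with a median of 0.00179. The HSF family list, which holds heat shock factors and genes for proteins that bind them, had 5 tested members and none passed. HSF1, the master regulator of the heat shock response, had 34.2 CPM in T24T circ, against 38.1 in T24T vector, and 34.4 in EJ circ, against 32.6 in EJ vector (-0.04 ± 0.10, edgeR adjusted p = 0.852). HSF2 had 18.7 CPM in T24T circ, against 20.6 in T24T vector, and 19.7 in EJ circ, against 21.9 in EJ vector (-0.14 ± 0.12, edgeR adjusted p = 0.485). HSF1 is mainly controlled through its protein, which mRNA counts do not measure.

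Partners of HSP70 and HSP90 rose in part, to be read against the 7.13% of all tested genes that rose. Of 13 tested genes in the J-domain list 4 rose and none fell, led by the ribosome-associated DNAJC2 (0.62 ± 0.08, edgeR adjusted p = 4.76e-06), DNAJA2 (0.39 ± 0.08, 0.00135) and DNAJA1 (0.30 ± 0.08, 0.0122). Of 15 HSP90 partners 3 rose, namely the HSP90 co-chaperone CHORDC1 (0.43 ± 0.10, edgeR adjusted p = 0.00340) and the peptidyl-prolyl isomerases FKBP5 (0.40 ± 0.09, 0.00254) and PPID (0.34 ± 0.10, 0.0201). Of 8 other HSP70 and HSP110 genes HSPA4L rose (0.30 ± 0.10, edgeR adjusted p = 0.0406). None of 9 exchange factors and adaptors and none of 3 testable small heat shock proteins passed. DNAJC2 and DNAJA2 passed in DESeq2 as well, and the other 5 named here did not.

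Mitochondrial chaperones did not move as 1 class, and their 1 rise and 1 fall among 15 stand beside 7.13% and 5.56% of all tested genes. HSPA9, the mitochondrial HSP70, rose by 0.28 ± 0.08 (edgeR adjusted p = 0.0154), with 778 CPM in T24T circ, against 641 in T24T vector, and 859 in EJ circ, against 707 in EJ vector. The matrix protease gene CLPP fell by 0.30 ± 0.10 (edgeR adjusted p = 0.0496), and the other 13 of that list did not pass, for a median of -0.01. HSPA9 and CLPP did not pass in DESeq2. Of 14 chaperonin and prefoldin genes of the cytosol PFDN2 alone rose (0.33 ± 0.08, edgeR adjusted p = 0.00567), and the list's median was -0.04.

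The endoplasmic reticulum held the largest share of rises among these lists, 7 of 10 with none falling and a median of 0.33, where 7.13% of all tested genes rose. HSPA5, the HSP70 of that compartment, rose by 0.85 ± 0.09 (edgeR adjusted p = 6.27e-08), with 1416 CPM in T24T circ, against 674 in T24T vector, and 718 in EJ circ, against 467.5 in EJ vector. Like HSPA1A and HSPA1B it had the larger ratio in T24T, 1.07, against 0.62 in EJ. CANX, calnexin, rose by 0.42 ± 0.08 (edgeR adjusted p = 0.000440) and SIL1, an HSPA5 exchange factor, by 0.46 ± 0.09 (0.000713). Among 10 further genes known to answer heat shock 3 rose and none fell, among them the autophagy receptor gene SQSTM1 (0.39 ± 0.09, edgeR adjusted p = 0.00440) and ZFAND2A (0.72 ± 0.24, 0.0416), which had between 38 and 80 counts a library. SQSTM1 had its larger log2 ratio in EJ, 0.64, against 0.16 in T24T. The plot of the lists gives all tested genes. HSPA5 and CANX also passed in DESeq2, and SIL1, SQSTM1 and PFDN2 did not, and DESeq2 gave no adjusted p for ZFAND2A.

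**Figure D5:**
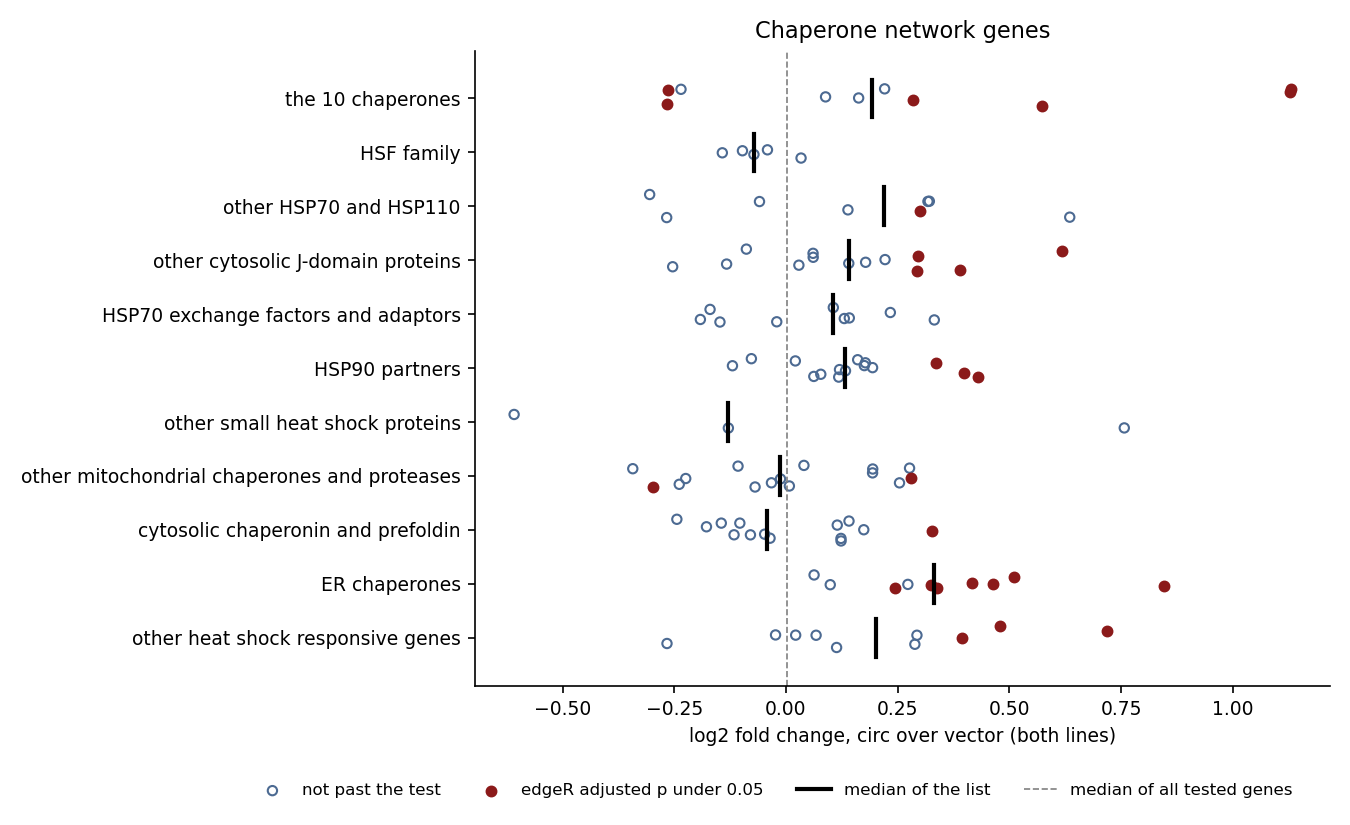
Log2 fold change of circ over vector from the fit over both lines (x axis) for the 10 chaperones and 10 further lists (rows); filled points passed the edgeR test, bars are list medians and the dashed line is the median of all tested genes. The endoplasmic reticulum list has 7 of 10 genes past the test, all higher, and the HSF family has none.

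The genes nearest to the summed HSPA1A and HSPA1B row were sought by Euclidean distance over the 4 log2 CPM values, each centred on its mean, among 11879 genes with 50 or more counts in every library. The 5 nearest were DDIT3 (distance 0.215), ZNF528-AS1 (0.315), CARS (0.388), HERPUD1 (0.417) and ASNS (0.444). DDIT3, which encodes the stress transcription factor CHOP, had 912 counts in T24T circ, against 284 in T24T vector, and 644 in EJ circ, against 381 in EJ vector, with log2 ratios of 1.60 in T24T and 0.85 in EJ. The ratios of CARS, HERPUD1 and ASNS lay between 1.27 and 1.58 in T24T and between 0.13 and 0.27 in EJ, so they share the line order of HSP70 with a lower ratio in EJ. The 5 nearest to HSPD1 were C19orf66 (0.0295), RP11-316M1.12 (0.0309), GRK6 (0.0376), GPHN (0.0396) and HNRNPCP2 (0.0441). With 4 libraries such nearness is a description of these libraries.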

How the data were processed

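Per the labels' protocols, TRIzol was used to isolate the RNA. The submitters' processing notes list hg38, HISAT2 and Trimmomatic but give no version. Counting tool, annotation, strand use and treatment of multi-mapped reads are not given in the sources used here. The authors deposited raw read counts per gene and RPKM, and 100% of the deposited RPKM values equalled count divided by exonic length and total count (relative tolerance 1e-06). Columns were matched by sample description (T24 in the tables, T24T in the titles).

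Genes with 10 or more counts in a library and 20 or more over the 4 were kept (17689). Counts were scaled by TMM and fitted in edgeR 4.0.16 (quasi-likelihood, terms for line and transfection, 1 residual and 30.5 prior degrees of freedom, R 4.3.3), with Benjamini-Hochberg adjustment over all tested genes. Within a line there is no test: log2 ratios use a prior count of 2, and folds carry 95% exact intervals for counting error. The edgeR p-values rest mostly on spread pooled over genes, not on the spread of each gene between the lines, and they apply to these libraries only. Libraries of the same line share their cells, which is why line is a term. Alternatives were RLE, library size alone, removal of mitochondrially encoded genes, 2 filters, DESeq2 1.42.0, limma 3.58.1 (voom, and log2(RPKM + 1) or log2(RPKM + 0.1)), dropping the second term, summing HSPA1A and HSPA1B, each line alone, prior counts of 0.5 and 10, and other sums in the within-library ratio. Gene coordinates follow the table (hg38) and promoters RefSeq GRCh38.p14.

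The members and lists were chosen with earlier results of these data known. Named genes are the 10 members, HSF1, HSF2 and HSPA5, up to 3 genes per direction of each list past the threshold, and the 5 nearest patterns to HSPA1A plus HSPA1B and to HSPD1; overlapping and neighbouring genes (TECR, HSPE1-MOB4, HSPA1L) and markers are named beside the member they touch. Some genes that the naming rule selects are not reported here.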

Additional observations from a re-analysis of the deposited data

Results flagged for a closer look

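HSF1 had ratios of opposite sign in the lines, lower in T24T circ than in T24T vector (log2 ratio -0.15) and higher in EJ circ than in EJ vector (0.08). The difference, T24T minus EJ, was -0.23 on the log2 scale. It was not tested, as 1 library stands behind each group, and the counting intervals of both ratios include 0 (-0.32 to 0.01 in T24T and -0.10 to 0.26 in EJ).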

How the results depend on the processing

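All 10 members kept the direction of circ against vector under each alternative fit and in each line alone, and HSPA1A ranged from 1.10 to 1.13 and HSPD1 from -0.28 to -0.27 over the alternative fits. Calls depended on the model. Dropping the cell line term (the replicate block) left 0 genes higher and 0 lower, and 0 members; limma on log2(RPKM + 1) and on log2(RPKM + 0.1) also gave 0 genes and 0 members, with 3588 and 3713 genes at an unadjusted p under 0.05. DESeq2 gave 181 genes higher and 153 lower, with 1 member higher (BAG3) and 0 lower; its adjusted p was 0.0974 for HSPA1A and 0.160 for HSPA1B. Over the 10 alternative fits adjusted p for HSPA1A ran from 3.46e-34 to 1 and 6 passed. DNAJB1 passed in 5 of 11 alternative fits, HSPE1 in 5 and HSPB1 and HSPD1 in 7 each; DNAJB1 was lost with mitochondrially encoded genes removed (edgeR adjusted p = 0.0529) and with 50 counts required (0.0750). Leaving out 1 library leaves 0 residual degrees of freedom in the blocked fit, so each line alone was used, with HSPA1A at 0.72 to 1.54, BAG3 at 0.50 to 0.65 and HSPD1 at -0.35 to -0.18.

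For T24T against EJ, genes higher and lower numbered 1944 and 1248 without the replicate block, 1776 and 1441 in DESeq2, and 2492 were higher in limma on log2(RPKM + 1). Members higher and lower were 1 and 2 with library size alone and 1 and 1 without the filter; 1 was higher in DESeq2, and 0 without the block and in both RPKM fits. HSPA1A, at 0.03, turned to -0.0323 with library size alone, -0.0387 with log2(RPKM + 1) and -0.0407 with log2(RPKM + 0.1), and DNAJB1, also at 0.03, turned to -0.0364, -0.0367 and -0.0382 in the same 3; none passed a test. The cause was not tested.

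The within-library ratio, a log2 difference of 1.79 in T24T and 0.89 in EJ, moved past its counting interval with other sums. Over HSPB1 alone it was 1.68 in T24T and 1.01 in EJ for all 3 inducible genes, 1.014 in EJ for the HSP70 pair, and 0.71 in T24T and 0.98 in EJ for BAG3. In T24T the HSP70 pair gave 1.88 over all 3, 1.92 over HSPD1 and 1.85 over HSPE1, and BAG3 gave 0.81, 0.85 and 0.78 over the same. These sums differ in which genes they hold.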
